A study of Mus musculus with 24 samples.

Results

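Oligodendrocyte lineage genes were read in cultures of mouse astrocytes and microglia: *Gpr17*, *Olig1*, *Olig2*, *Sox10*, *Pdgfra*, *Cspg4*, *Mbp*, *Cnp* and *Ugt8a*, 9 of the 24411 genes measured. The set was chosen by name, and by measured values in part. *Gpr17* was picked on its levels in quiescent *SOD1* G93A against quiescent WT astrocytes, and the other 8 genes were added as well-known genes of the same lineage when a fall of an overlapping list in activated WT astrocytes had already been seen. Both of those comparisons are therefore given as a description, in values and in counts of called genes that the choice itself shaped, with no p-value of any of the 9 genes. The libraries behind the choice, quiescent *SOD1* G93A and activated WT among them, are also 1 side of the tests of activation in *SOD1* G93A cells and of the activated genotypes, so these tests are not independent of the choice.

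The study measured polyA-enriched RNA of cultured glia by bulk sequencing, to ask how the *SOD1* G93A transgene of a mouse model of amyotrophic lateral sclerosis alters astrocytes and microglia at rest and when stimulated. Of its 24 samples, 21 had values and entered as triplicates of 7 conditions; *SOD1* G93A microglia at rest, the remaining 3, were not analysed here. Quiescent astrocytes, WT or *SOD1* G93A, received PBS, and activated astrocytes of each genotype received 3 ng/ml IL-1α, 30 ng/ml TNFα and 400 ng/ml C1q together. WT microglia received PBS, and WT or *SOD1* G93A microglia received 50 ng/ml LPS.

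The cells were primary and came from postnatal mice; the transgenic line was kept on a C57BL/6J background. Astrocytes were taken from forebrain cortex by immunopanning, in which plates coated against CD45, with the lectin BSL I and with the O4 antibody removed microglia, endothelial cells and O4-positive cells of the oligodendrocyte lineage before HepaCAM-positive cells were kept, and they grew without serum in medium with HBEGF. O4 appears late in the lineage, and whether earlier progenitors stayed in the cultures was not tested. The methods name WT mice for the astrocyte purification and do not describe the *SOD1* G93A astrocyte donors separately. Microglia were collected with CD11b beads after myelin had been removed. The sources read here do not state whether the libraries of a condition came from separate animals or cultures, and a supplementary table on the number of biological replicates could not be read, so p-values measure only the spread between these samples, which may be technical.

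Depth, counted as reads on genes, ran from 2016139 to 9258718 in quiescent WT astrocytes, from 3292225 to 9526331 in quiescent *SOD1* G93A astrocytes, from 5047999 to 6768201 in activated WT astrocytes and from 2135439 to 3929272 in activated *SOD1* G93A astrocytes. The microglia libraries had 2550560 to 11570122 reads. Levels are given as RPM, the reads of a gene scaled to a library of 1000000 reads on genes, so that each library stands alone, and levels of the 9 genes are compared with one another only in RPM per kilobase of exon; where a gene is said to have the most reads of a list, its exon length is not taken into account.

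Oligodendrocytes, the myelin-forming cells of the central nervous system, arise from progenitors that carry the growth factor receptor PDGFRα and the proteoglycan NG2, encoded by *Pdgfra* and *Cspg4*. The transcription factors OLIG1, OLIG2 and SOX10 set up and maintain the lineage, the receptor GPR17 marks a committed stage before myelination, and *Mbp*, *Cnp* and *Ugt8a* encode products of myelinating cells. *Olig2* is also made by immature astrocytes of the postnatal cortex, and *Cspg4* by pericytes, so neither of these genes marks the lineage alone. Quiescent WT microglia also held *Cspg4* at 1229 ± 23.7 RPM and *Mbp* at 84.8 ± 0.989 RPM (SD, n = 3), above every astrocyte library. The part of microglia in the astrocyte levels of these genes was not tested.

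The libraries carried the astrocyte label. Summed over 15 astrocyte markers, the level was 6694, 7257 and 8249 RPM in the 3 quiescent WT libraries and 7158, 6591 and 5796 RPM in the 3 quiescent *SOD1* G93A libraries. In the activated libraries the sums lay between 5644 and 5716 RPM for WT and between 5656 and 5760.4 RPM for *SOD1* G93A. *Slc1a3*, the glutamate transporter GLAST, had the most reads of these markers, and *Gjb6* had at most 3 reads in every library of each astrocyte condition. The 9 lineage genes together reached 3145, 3064 and 2972 RPM in quiescent WT astrocytes, and *Olig1* alone supplied 1799 ± 64.9 RPM of this (SD, n = 3). Of 16 other myelin genes, which summed to 55.2 ± 7.66 RPM in the same group (SD, n = 3), *Mog* and *Klk6* were at 0 in every library there. In these bulk cultures, fewer cells that express a gene and less RNA of it per cell cannot be told apart.

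Per kilobase of exon, *Olig1*, *Olig2* and *Cnp* held ranks 1, 2 and 3 in all 4 astrocyte groups. In quiescent WT astrocytes the level of *Olig1* was 832 ± 30.0 RPM per kb, that of *Olig2* 343 ± 22.0 and that of *Cnp* 38.2 ± 0.769 (SD, n = 3). These 3 genes did not overlap with one another or with the next gene in any of the 4 groups. *Sox10* at 11.3 ± 3.00, *Gpr17* at 9.54 ± 1.02 and *Pdgfra* at 8.96 ± 1.87 RPM per kb came next in quiescent WT astrocytes, and neighbours among these 3 overlapped (SD, n = 3). *Cspg4* at 5.15 ± 1.38, *Ugt8a* at 2.35 ± 0.368 and *Mbp* at 0.945 ± 0.126 RPM per kb followed without overlap (SD, n = 3).

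The level of *Gpr17* per kilobase was 2.91 ± 0.265 RPM in quiescent *SOD1* G93A astrocytes, rank 7 of 9, below *Pdgfra*, *Cspg4* and *Sox10*, whose neighbours in the order overlapped there at 6.61 ± 0.432, 6.60 ± 0.562 and 5.91 ± 0.117 RPM per kb (SD, n = 3). Activated astrocytes had *Gpr17* in the last place, at 0.613 ± 0.130 RPM per kb in WT and 0.336 ± 0.129 in *SOD1* G93A (SD, n = 3), under *Ugt8a* at 0.975 ± 0.148 and 1.05 ± 0.190. *Sox10* and *Pdgfra* overlapped in activated WT astrocytes, at 7.95 ± 0.747 and 7.92 ± 0.467 RPM per kb, whereas in activated *SOD1* G93A astrocytes *Cspg4* and *Pdgfra* overlapped, at 5.79 ± 0.481 and 5.19 ± 0.506 RPM per kb, and *Sox10* stood below both at 4.11 ± 0.509 (SD, n = 3). *Ugt8a* and *Mbp* changed places with activation, having overlapped in quiescent *SOD1* G93A astrocytes: *Mbp* stood at 1.38 ± 0.178 RPM per kb in activated WT and 2.24 ± 0.593 in activated *SOD1* G93A astrocytes (SD, n = 3).

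**Figure D1:**
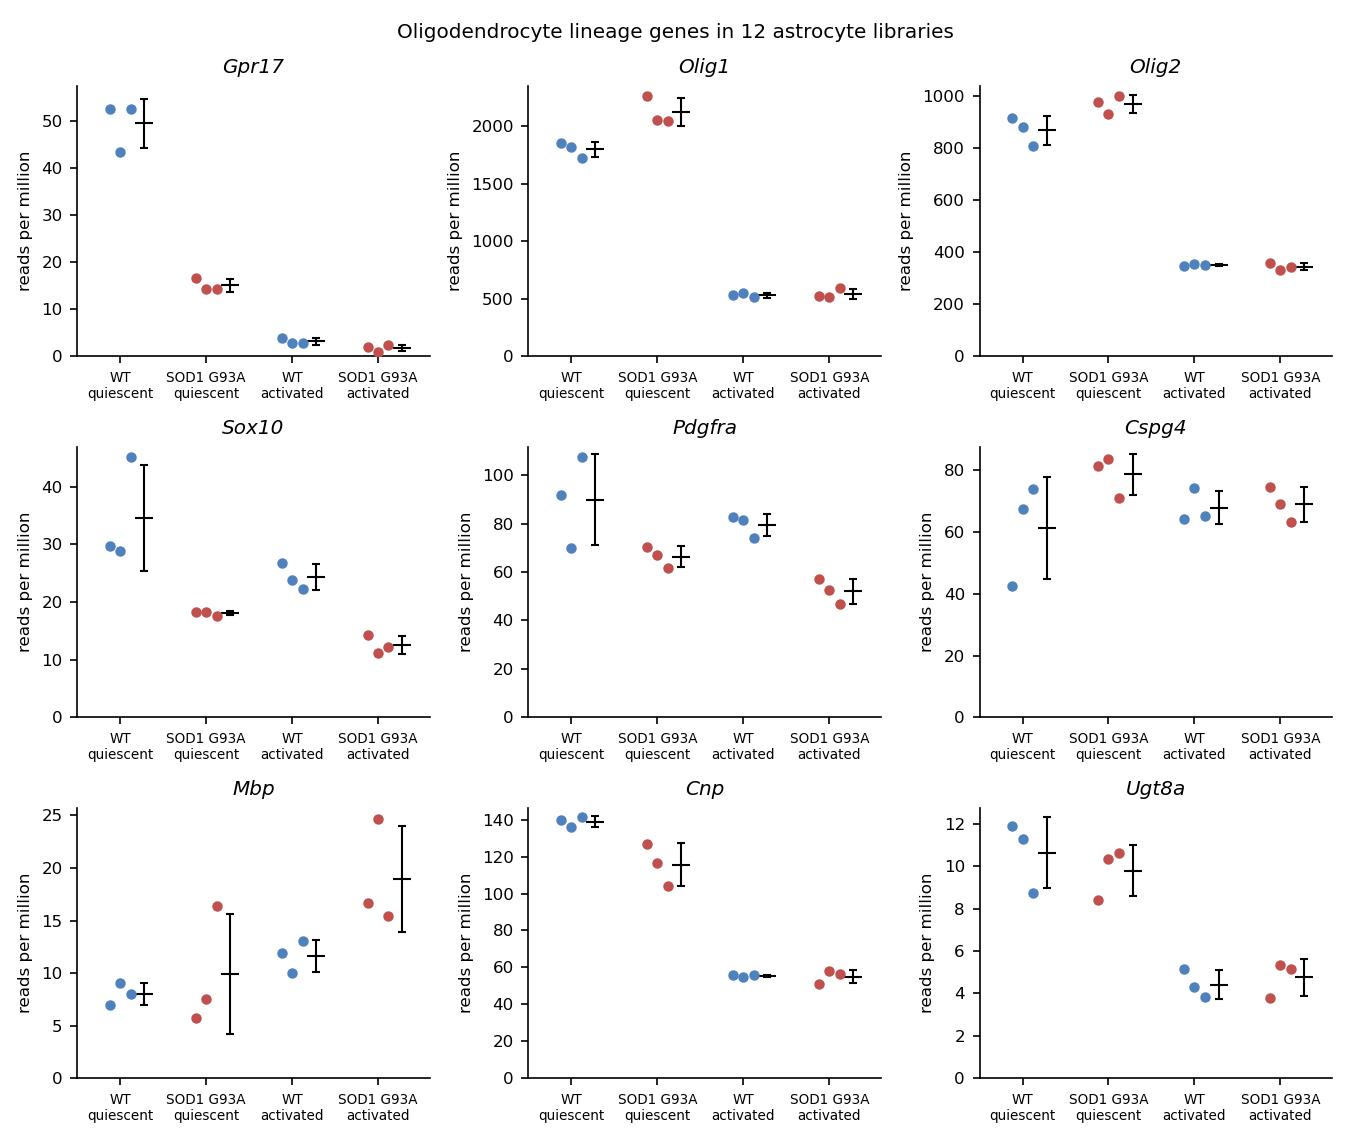
Level of each of the 9 genes (vertical axis, RPM, from 0) in quiescent and activated WT (blue) and *SOD1* G93A (red) astrocytes; each point is 1 library, and the bar beside the points is the mean with its SD (n = 3). *Gpr17* lies between 43.4 and 52.6 RPM in quiescent WT and between 14.3 and 16.7 RPM in quiescent *SOD1* G93A astrocytes, and *Olig1* at 1727 RPM or more in every quiescent and at 589.6 RPM or less in every activated library.

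Differences were tested with limma on log2(normalized count + 1), over all genes with a mean of at least 10, and a call needed an adjusted p under 0.001 together with a fold change above 2; log2 fold changes on this scale understate the change of low genes. With 3 libraries a side, an exact permutation test of a single gene cannot give a two-sided p below 0.1. Comparisons of astrocytes share libraries: the quiescent *SOD1* G93A libraries enter both the genotype comparison at rest and the activation of *SOD1* G93A cells, the activated *SOD1* G93A libraries enter both that activation and the genotype comparison after it, and the activated WT libraries enter both the WT response, which shaped the set, and that same genotype comparison. All 9 genes passed the filter in each astrocyte comparison.

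Activation of *SOD1* G93A astrocytes lowered *Gpr17*, *Olig1* and *Olig2*, and no gene of the set was called higher. Called lower were thus 3 of the 9 genes, beside 781 of 12203 genes tested (6.40%), and called higher were 0 of the 9, beside 823 genes (6.74%). Of the 3, *Gpr17* passed the filter only through its quiescent libraries, on which it was also picked. The set was chosen with a fall in the WT response to the same treatment already seen. The counts of the 9 in this comparison therefore cannot be held against those of all genes. Without quiescent *SOD1* G93A library 3, limma also called *Cnp* lower and *Mbp* higher. By edgeR and by DESeq2 4 of the 9 were called lower, *Cnp* being the addition, and 0 higher, where edgeR called 819 genes lower and 817 higher and DESeq2 791 and 832; an unadjusted p under 0.05 was reached by 8 of the 9 and by 6142 genes. At an adjusted p under 0.05 and any fold change, 6 of the 9 were lower and 1 was higher, against 2626 (21.5%) and 2636 (21.6%) of all genes. The median log2 fold change of the 9 was −0.94, and that of all genes tested −0.005.

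Between activated *SOD1* G93A and activated WT astrocytes none of the 9 genes was called by limma, in which 63 of 12098 genes were called higher (0.521%) and 15 lower (0.124%); edgeR called 84 and DESeq2 81 genes in all, and none of the 9. An unadjusted p under 0.05 was reached by 2464 genes, 3 of the set among them. At an adjusted p under 0.05 and any fold change, 1 of the 9 (*Mbp*) was higher and 2 (*Sox10* and *Pdgfra*) were lower, where 557 (4.60%) and 322 (2.66%) of all genes were. The median over the 9 genes was 0.03, and over all genes 0.00, on the log2 scale.

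The counts in the comparisons that chose the set stand here as a description; the choice shaped them, so they cannot be held against the counts of all genes. None of the 9 genes was called by limma between quiescent *SOD1* G93A and WT astrocytes, nor was any of the 12271 genes tested, higher (0.00%) or lower (0.00%); an unadjusted p under 0.05 was reached by 4 of the 9 and by 1068 genes, edgeR called 0, and DESeq2 called 7, 1 of which was *Gpr17*, chosen on the same values. In activated against quiescent WT astrocytes 4 of the 9 were called lower and 0 higher; of all 12336 genes 684 were called lower (5.54%) and 740 higher (6.0%). DESeq2 and edgeR also called 0 of the 9 higher there, and an unadjusted p under 0.05 was reached by 7 of the 9 and by 5774 genes. *Gpr17*, *Olig1*, *Olig2* and *Cnp* met both limits of a call, lower, in each of 17 alternatives, edgeR and DESeq2 among them. *Ugt8a* met them, lower, in some. The alternatives refit the same libraries that shaped the choice, so they describe only the effect of processing and add no support. Median log2 fold changes of the 9 genes were −0.14 at rest and −1.20 in the WT response, against 0.00 and 0.01 over all genes. Other markers moved in the WT response too. There limma called 17 of 18 cell cycle genes lower (median −1.744) and 0 higher. It called 4 of 14 astrocyte markers lower and 0 higher, and of 11 neuron markers 3 higher and 1 lower. Their part in the values of the 9 genes was not tested.

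*Olig1* and *Olig2* encode basic helix-loop-helix factors of the lineage and are neighbours on chromosome 16, at chr16:91269772-91271933 and chr16:91225457-91228677 in GRCm38, with 41094 bases between them. *Olig1* was at 1853, 1818 and 1727 RPM in quiescent WT, 2262, 2058 and 2045 RPM in quiescent *SOD1* G93A, 529, 552 and 512 RPM in activated WT and 521, 515 and 589.6 RPM in activated *SOD1* G93A astrocytes. Every activated library was thus far below every quiescent one, and at rest all 3 *SOD1* G93A libraries were above all 3 WT libraries. In *SOD1* G93A cells *Olig1* fell by 1.89 ± 0.11 on the log2 scale (SE), a 3.71-fold change (adjusted p = 1.24e-09). Between the genotypes after activation the libraries overlapped, and the log2 fold change was 0.07 ± 0.06 (SE, adjusted p = 0.60). The descriptive values were 0.21 ± 0.12 for *SOD1* G93A against WT at rest and −1.74 ± 0.09 for the WT response (log2, SE).

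The level of *Olig2* was 917, 881 and 807 RPM in quiescent WT, 976, 931 and 999.6 RPM in quiescent *SOD1* G93A, 346, 354 and 351 RPM in activated WT and 359, 329.8 and 343 RPM in activated *SOD1* G93A astrocytes. Quiescent and activated libraries did not overlap, and the activated libraries of the genotypes did. Activation lowered *Olig2* in *SOD1* G93A cells by −1.41 ± 0.09 (log2, SE), a 2.66-fold change (adjusted p = 4.69e-09). The genotype difference after activation was 0.01 ± 0.06 (log2, SE, adjusted p = 0.931). At rest the descriptive difference was 0.14 ± 0.10, and in the WT response −1.28 ± 0.08 (log2, SE). Reads of *Olig1* per read of *Olig2* were 2.08 ± 0.0595 in quiescent WT and 2.19 ± 0.136 in quiescent *SOD1* G93A astrocytes, against 1.51 ± 0.0516 and 1.58 ± 0.134 after activation (SD, n = 3). This ratio was lower in each of the 6 activated libraries, at most 1.72, than in each of the 6 quiescent ones, at least 2.02.

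*Sox10*, at chr15:79154908-79165240, encodes the SOX family factor that switches on myelin genes. Its level was 29.8, 28.9 and 45.1 RPM in quiescent WT, 18.3, 18.2 and 17.6 RPM in quiescent *SOD1* G93A, 26.7, 23.8 and 22.3 RPM in activated WT and 14.2, 11.2 and 12.2 RPM in activated *SOD1* G93A astrocytes. All *SOD1* G93A libraries, quiescent or activated, lay below all WT libraries, and quiescent WT library 3 stood well above the other 2. After activation *Sox10* was lower in *SOD1* G93A than in WT cells in 3 of 3 libraries, by a log2 fold change of −0.90 ± 0.15 (SE), which is 1.87-fold and so under the limit of a call (limma adjusted p = 0.000423, from 2.53e-05 to 0.00996 over the alternatives). These values rest on 26 to 53 reads per *SOD1* G93A and 128 to 161 per WT library. The response of *SOD1* G93A cells to activation was −0.44 ± 0.16 (log2, SE, adjusted p = 0.0384, from 0.0278 to 0.129 over the alternatives), with no overlap between the libraries and no call. The descriptive values were −0.93 ± 0.19 for the genotypes at rest and −0.46 ± 0.18 for the WT response (log2, SE).

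*Pdgfra*, at chr5:75152292-75198215, encodes the receptor through which PDGF-A drives progenitors to divide. Its level was 91.8, 70.1 and 107 RPM in quiescent WT, 70.2, 67.0 and 61.7 RPM in quiescent *SOD1* G93A, 82.8, 81.4 and 74.1 RPM in activated WT and 57.0, 52.4 and 46.8 RPM in activated *SOD1* G93A astrocytes. The genotypes were separate after activation and touched at rest, where WT library 2 lay just under the highest *SOD1* G93A library. In activated cells *Pdgfra* was lower in *SOD1* G93A in 3 of 3 libraries, by −0.57 ± 0.09 (log2, SE), a 1.48-fold difference that was not called (limma adjusted p = 0.000216, from 1.87e-06 to 0.0039 over the alternatives). Activation of *SOD1* G93A cells gave −0.27 ± 0.11 (log2, SE, adjusted p = 0.0619, from 0.0217 to 0.23 over the alternatives), and its libraries did not overlap. As a description, the genotypes differed by −0.44 ± 0.16 at rest, and the WT response was −0.13 ± 0.15 (log2, SE).

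The ratio of *Sox10* to *Pdgfra* varied most among the quiescent WT libraries, from 0.324 to 0.42. Reads of *Sox10* per read of *Pdgfra* were 0.385 ± 0.0531 in quiescent WT and 0.272 ± 0.0128 in quiescent *SOD1* G93A astrocytes, and 0.305 ± 0.0159 and 0.241 ± 0.0244 in the activated groups (SD, n = 3). The lowest WT ratio was 0.292 and the highest *SOD1* G93A ratio 0.286, so that the 6 libraries of each genotype did not overlap. The quiescent ones among them enter the comparison that chose the set, and the ratio was not tested.

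*Cspg4*, at chr9:56865033-56899870, encodes the NG2 proteoglycan of the progenitor surface. Its level was 42.7, 67.6 and 73.9 RPM in quiescent WT, 81.6, 83.6 and 71.1 RPM in quiescent *SOD1* G93A, 64.4, 74.2 and 65.2 RPM in activated WT and 74.7, 69.2 and 63.2 RPM in activated *SOD1* G93A astrocytes. The groups overlapped in each astrocyte comparison, and quiescent WT library 1 was the lowest of the 12. The log2 fold change was 0.06 ± 0.09 between the activated genotypes (adjusted p = 0.745) and −0.11 ± 0.11 for the activation of *SOD1* G93A cells (SE, adjusted p = 0.442). The descriptive values were 0.37 ± 0.19 at rest and 0.21 ± 0.19 for the WT response (log2, SE).

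*Gpr17*, at chr18:31942997-31949636, encodes a G protein-coupled receptor of committed precursors that have not yet formed myelin. Its level was 52.6, 43.4 and 52.6 RPM in quiescent WT, 16.7, 14.3 and 14.3 RPM in quiescent *SOD1* G93A, 3.96, 2.81 and 2.78 RPM in activated WT and 1.88, 1.02 and 2.34 RPM in activated *SOD1* G93A astrocytes. All 4 groups were separate from one another. In *SOD1* G93A cells the log2 fold change of *Gpr17* with activation was −2.94 ± 0.30 (SE), a 7.68-fold change and the steepest fall among the 9 genes. *Gpr17* passed the filter there only through the quiescent libraries, on which it was also picked, so this value is a description. The alternative that asks a minimum of each library did not test it. After activation 20, 19 and 16 reads were left in the WT libraries and 7, 4 and 5 reads in the *SOD1* G93A libraries. The difference of −0.80 ± 0.40 between them (log2, SE) did not pass, although the groups did not overlap (limma adjusted p = 0.27, from 0.17 to 0.539 over the alternatives). Here *Gpr17* passed the filter only through the WT libraries, so this value too is a description.

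The contrast that chose *Gpr17* gave −1.72 ± 0.14 (log2, SE), or 3.30-fold less in quiescent *SOD1* G93A astrocytes, and the WT response −3.86 ± 0.19. Reads of *Gpr17* per read of *Sox10* were 1.77, 1.50 and 1.17 in quiescent WT, 0.914, 0.788 and 0.810 in quiescent *SOD1* G93A, 0.148, 0.118 and 0.125 in activated WT and 0.132, 0.0909 and 0.192 in activated *SOD1* G93A libraries. The ratio was thus lower in every activated than in every quiescent library and overlapped between the activated genotypes. *Gpr17* shares 188 exon bases with *Lims2* on the opposite strand; the libraries mark strand, how the counting used it is not given in the sources used here, and *Lims2* had 112 reads over all 21 libraries.

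*Mbp*, at chr18:82475146-82585637, encodes myelin basic protein; counts per gene do not separate its myelin transcripts from the longer Golli transcripts of the same gene. Its level was 6.94, 9.07 and 7.99 RPM in quiescent WT, 5.77, 7.59 and 16.4 RPM in quiescent *SOD1* G93A, 11.9, 10.05 and 13.0 RPM in activated WT and 16.7, 24.7 and 15.5 RPM in activated *SOD1* G93A astrocytes. Activated *SOD1* G93A libraries were all above the activated WT libraries, and 1 quiescent *SOD1* G93A library, number 3, lay among them. *Mbp* was higher in activated *SOD1* G93A than in activated WT cells by 0.71 ± 0.18 (log2, SE), a 1.63-fold difference that was not called (limma adjusted p = 0.0218). Over the alternatives the adjusted p ran from 0.00547 to 0.142, the highest without activated *SOD1* G93A library 2, where the log2 fold change was 0.50.

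With activation of *SOD1* G93A cells, *Mbp* differed by 1.11 ± 0.29 (log2, SE), 2.15-fold, and missed the limit of a call (adjusted p = 0.00597, from 2.17e-06 to 0.0457 over the alternatives). Without quiescent *SOD1* G93A library 3 the value was 1.51 and passed it (adjusted p = 2.17e-06). It was the only one of the 9 genes above 0 in this comparison. The descriptive values were 0.15 ± 0.33 at rest, which turned to −0.27 without that library, and 0.56 ± 0.20 for the WT response (log2, SE).

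*Cnp*, at chr11:100574904-100591729, encodes a phosphodiesterase of non-compact myelin that appears early in the lineage. Its level was 139.9, 136 and 141 RPM in quiescent WT, 127, 116 and 104 RPM in quiescent *SOD1* G93A, 56.1, 55.0 and 55.7 RPM in activated WT and 51.1, 58.0 and 56.2 RPM in activated *SOD1* G93A astrocytes. Activated libraries were all below quiescent ones, the quiescent genotypes were separate, and the activated genotypes overlapped. In *SOD1* G93A cells the response was −0.98 ± 0.11 (log2, SE), 1.98-fold and just short of the 2-fold limit, at an adjusted p of 1.93e-06. Quantile normalization gave −1.05 and edgeR −1.03, which were both called; DESeq2 also called it, just past 2-fold; −1.08 without quiescent library 3 and −1.02 without activated library 2 of the *SOD1* G93A cells were called too (adjusted p from 3.99e-12 to 5.95e-05 over the alternatives). The genotypes after activation differed by 0.03 ± 0.09 (log2, SE, adjusted p = 0.911). Descriptive values were −0.29 ± 0.11 at rest and −1.30 ± 0.08 for the WT response (log2, SE). *Cnp* shares 154 exon bases with *Dnajc7* on the opposite strand, which had 13958 reads over all libraries, so the level of *Cnp* is uncertain by what such reads would add.

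*Ugt8a*, at chr3:125865271-125938619, encodes the enzyme that makes galactosylceramide, a lipid of myelin. Its level was 11.9, 11.3 and 8.75 RPM in quiescent WT, 8.40, 10.3 and 10.6 RPM in quiescent *SOD1* G93A, 5.15, 4.28 and 3.83 RPM in activated WT and 3.76, 5.34 and 5.15 RPM in activated *SOD1* G93A astrocytes. Quiescent libraries were all above activated ones, and the genotypes overlapped in both states. Activation of *SOD1* G93A cells gave −0.94 ± 0.24 (log2, SE), 1.92-fold, which was not called (adjusted p = 0.00466, from 0.00314 to 0.0296 over the alternatives). The activated genotypes differed by 0.13 ± 0.28 (log2, SE, adjusted p = 0.85), on 11 to 29 reads per library. Descriptive values were −0.14 ± 0.19 at rest and −1.20 ± 0.22 for the WT response (log2, SE).

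**Figure D2:**
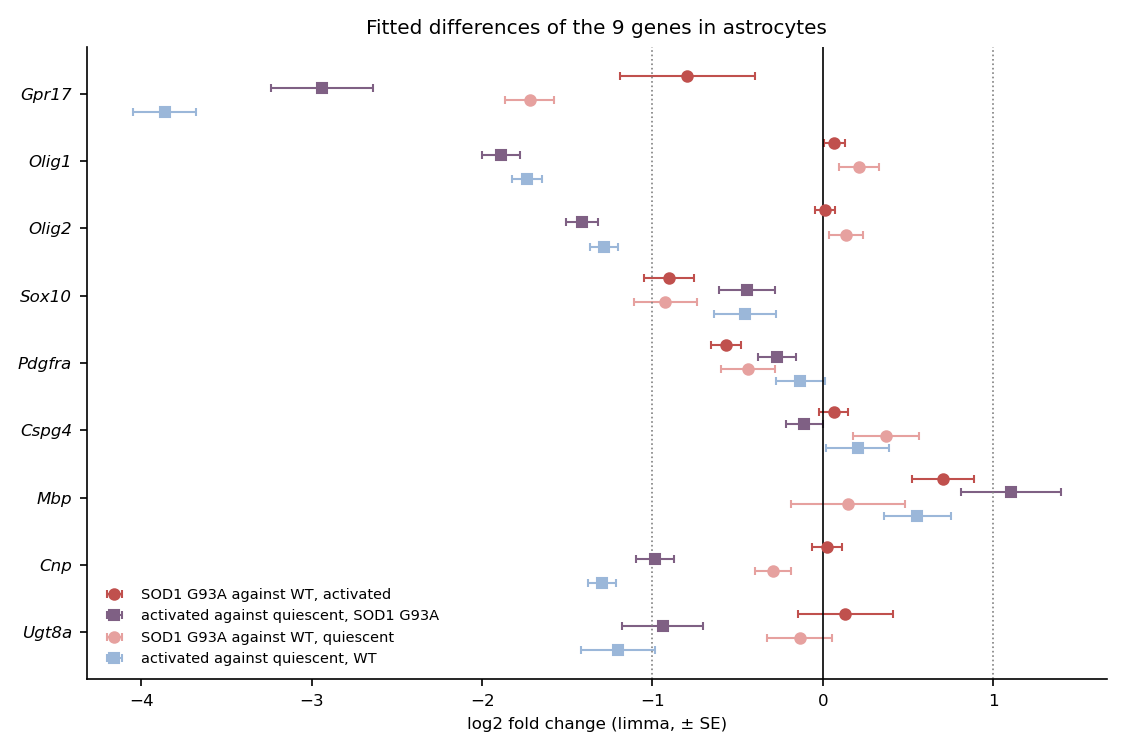
Log2 fold change (horizontal axis, limma, bars SE, n = 3 libraries a side) of each of the 9 genes (vertical axis) in 4 comparisons of astrocytes: *SOD1* G93A against WT when activated (red circles), activated against quiescent *SOD1* G93A (purple squares), and the descriptive comparisons in pale colours; dotted lines mark 2-fold. *Gpr17* at −2.94, *Olig1* at −1.89 and *Olig2* at −1.41 lie beyond the line for the activation of *SOD1* G93A cells, and *Sox10* at −0.90, *Gpr17* at −0.80 with the widest bar, *Pdgfra* at −0.57 and *Mbp* at 0.71 lie off 0 between the activated genotypes.

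Whether the response to activation differed between the genotypes was asked by an interaction term over all 12 astrocyte libraries, a term that is built from both comparisons that chose the set, so that the values of the 9 genes are a description. None of the 9 genes passed an adjusted p of 0.05 in limma, where 33 of 12269 genes had a positive (0.269%) and 1 a negative term (0.00815%); an unadjusted p under 0.05 was reached by 2 of the 9 and by 1018 genes, and edgeR passed 33 and DESeq2 69 genes, none of the set among them. The term was 0.92 ± 0.36 for *Gpr17* and 0.32 ± 0.14 for *Cnp* (log2, SE). Terms of the other 7 genes lay between −0.31 for *Cspg4* and 0.56 for *Mbp*.

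Other genes of the lineage were read from lists of progenitor, committed precursor and myelin genes. Of 14 progenitor genes 11 were tested in the activation of *SOD1* G93A cells, with 6 called lower and 1 higher and a median of −1.23 (log2). *Sox8*, a SOX factor related to *Sox10*, fell by 3.02 ± 0.10 (log2, SE, adjusted p = 1.16e-12), from 468 ± 25.7 to 54.3 ± 4.68 RPM (SD, n = 3). *Myt1* fell by 2.20 ± 0.20 and *Cacng4* by 1.66 ± 0.17 (log2, SE; adjusted p = 1.85e-07 and 8.7e-07). *Vcan*, a matrix proteoglycan, rose by 1.84 ± 0.11 (log2, SE, adjusted p = 1.77e-09). *Ptprz1*, a receptor phosphatase that astrocytes express too, had the most reads of the list, at 2789.7 ± 368 RPM in quiescent and 1038 ± 84.7 RPM in activated *SOD1* G93A astrocytes (SD, n = 3).

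Of 12 committed precursor genes 8 were tested there, and 0 were called by limma in either direction, with 3 lower at an adjusted p under 0.05 and a median of −0.26; their sum went from 932 ± 23.4 to 765 ± 17.3 RPM (SD, n = 3), of which *Fyn* had the most reads. Of 16 myelin genes only 3 were tested and 0 called, *Trf*, the iron carrier transferrin, being higher by 0.82 ± 0.12 (log2, SE, adjusted p = 4.38e-05). Of 5 genes for PDGF ligands and the β receptor 4 were tested and 2 called higher, *Pdgfa* by 1.96 ± 0.21 (adjusted p = 9.34e-07) and *Pdgfrb* by 1.21 ± 0.24 (log2, SE, adjusted p = 0.000619). *Pdgfa*, which encodes the ligand of PDGFRα, went from 8.58 ± 2.22 to 31.7 ± 4.90 RPM, while *Pdgfra* itself had 66.3 ± 4.33 and 52.1 ± 5.08 RPM (SD, n = 3).

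Between the activated genotypes 0 genes of these 4 lists were called by limma. At an adjusted p under 0.05 and any fold change, 5 of the 11 progenitor genes tested were lower and 0 higher, with a median of −0.35: *Vcan* at −0.41, *Sox8* at −0.35, *Cacng4* at −0.75, *Myt1* at −0.65 and *Tnr* at −0.61 (adjusted p from 0.00375 to 0.0458). Of 7 committed precursor genes tested 1 was higher, *Rnf122* by 0.63 (adjusted p = 0.000157); of the myelin and PDGF genes 4 each were tested and 0 passed.

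Markers of other cells moved with some of these results, and their part in them was not tested. With activation of *SOD1* G93A astrocytes all 18 cell cycle genes were called lower (median −1.73), and their sum went from 3779, 3478 and 3419 RPM to 971, 892 and 968 RPM; *Mki67* had the most reads. Of 14 astrocyte markers tested 3 were called lower and 1, *Gfap*, higher. Of 13 microglia markers tested 0 were called and 10 were lower at an adjusted p under 0.05 (median −0.67), with sums of 439, 459.5 and 309.5 RPM at rest and 296, 207 and 224 RPM after activation, against 13580, 14269 and 13317 RPM in quiescent WT microglia; *Csf1r* had the most reads at rest. Of 10 neuron markers tested 2 were called higher and 1 lower, of 2 endothelial markers 1 higher, and of 5 pericyte and fibroblast markers 2 higher. At an adjusted p under 0.05, 1 endothelial marker was higher and 1 lower, and 2 pericyte and fibroblast markers were higher and 2 lower. Of the latter, *Dcn* and *Lum* were the higher ones, and *Dcn* had at most 3 reads in every quiescent library. The pericyte and fibroblast sum was 127 ± 13.6 RPM at rest and 124 ± 5.05 RPM after activation (SD, n = 3). *Flt1* made up 113 RPM of the endothelial sum of 123 ± 3.44 RPM after activation (SD, n = 3), where *Cdh5*, *Cldn5* and *Ly6c1* were at 0 in every library.

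Beside the lower *Sox10* and *Pdgfra* of activated *SOD1* G93A astrocytes stood lower neuron markers. Of 11 tested, 10 were below 0, 5 were lower at an adjusted p under 0.05 and 1, *Dcx*, was called (median −0.71). Their sums were 478, 517 and 519 RPM in WT and 456, 454 and 470.2 RPM in *SOD1* G93A libraries, most of it *Map2*, which did not pass (0.03, adjusted p = 0.881). Pericyte and fibroblast markers, of which 6 were tested and 1 passed an adjusted p of 0.05, summed to 158, 172 and 149 RPM in WT and 124, 129 and 119 RPM in *SOD1* G93A libraries; *Notch3* had the most reads and *Abcc9* was at 0 in every library of both groups. Endothelial markers had 1 of 2 tested past that limit, lower, with sums of 145, 154 and 158 RPM in WT and 126, 123 and 119 RPM in *SOD1* G93A libraries. Microglia markers had 0 of 13 genes past it, cell cycle genes 0 of 18, and astrocyte markers 6 higher and 2 lower of 14.

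The sex genes differed as well. *Xist* was higher by 1.19 ± 0.11 and the Y-linked *Kdm5d*, *Ddx3y*, *Uty* and *Eif2s3y* were lower by −1.06 to −1.45 in activated *SOD1* G93A against activated WT astrocytes (log2, SE), all 5 called, and all 12 astrocyte libraries held reads of both kinds. All 3 activated *SOD1* G93A libraries were shallower than all 3 activated WT libraries, so depth and genotype cannot be told apart there; nor can the mix of sexes. At rest *Xist* stood at 1.99 ± 0.44 and the 4 Y-linked genes at −1.01 to −1.24 in *SOD1* G93A against WT astrocytes (log2, SE), none called; *Kdm5d* and *Ddx3y* passed an adjusted p of 0.05 in limma (0.0244 and 0.0455). With activation of *SOD1* G93A cells *Xist* was lower by −0.94 ± 0.27 (log2, SE, adjusted p = 0.0108) and *Kdm5d* by −0.53 ± 0.17 (adjusted p = 0.0171), neither of them called, and the other 3 did not pass 0.05. The part of the sex genes in the results for the 9 genes was not tested. In the quiescent genotype comparison 13 of 13 microglia markers were above 0, with a median of 0.57 and none called, and WT sums were 194, 278 and 353 RPM. There 12 of 14 astrocyte markers tested were below 0 (median −0.27), as were 4 of 4 pericyte and fibroblast markers (median −0.50), of which *Tagln* at −1.04 passed an adjusted p of 0.05 in limma (0.0244) and none was called.

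Likeness to *Gpr17* was ranked over the 12 astrocyte libraries, as Pearson's r of log2 values of reads scaled together, among 12268 other genes with a mean of at least 10. The 12 points share state, genotype and depth with one another, so r describes the pattern and carries no test. First came *Klhl23* with r = 0.99, 0.984 within the 6 quiescent and 0.885 within the 6 activated libraries, and *Ttyh1* with 0.988, 0.979 and 0.826. *Lrrc40* (0.983), *Pou3f2* (0.981), *Wasf1* (0.979), *Apcdd1* (0.977), *Igsf8* (0.976), *Hn1* (0.976), *Mcm7* (0.975) and *2810459M11Rik* (0.974) followed, with r within the quiescent libraries of 0.848 to 0.981 and within the activated ones of 0.581 to 0.987. Nearest to *Gpr17* within the set stood *Cnp*, rank 99 (r = 0.953), with 0.865 within the quiescent and −0.32 within the activated libraries.

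*Sox10* was most like *Upf1* (r = 0.947), *Pcbp4* (0.944), *Fbxo2* (0.941), *Pdgfra* (0.941) and *Rnf20* (0.932) over the same 12 libraries. *Pdgfra* held this likeness within the 6 quiescent (r = 0.910) and within the 6 activated libraries (r = 0.971), and *Sox10* was in turn rank 2 for *Pdgfra*. *Olig1* was rank 1 for *Olig2* with r = 0.997, which was 0.862 within the quiescent but 0.127 within the activated libraries. *Gpr17* and *Olig1* had r = 0.890 over all 12 and −0.767 within the 6 quiescent libraries, where *Gpr17* was the higher in WT and *Olig1* the higher in *SOD1* G93A cells.

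Promoter sequences are shown for 3 genes: *Olig2*, which was called lower after activation of *SOD1* G93A cells, and *Cnp* and *Pdgfra*, which limma called in neither test of astrocytes. Sequences upstream of the start come from a promoter table made from RefSeq on GRCm38.p6, and 5 of the 9 genes were in that table; *Gpr17*, *Olig1*, *Sox10* and *Mbp* were not. The letters CANNTG, bound by helix-loop-helix factors, and ACAAT or its reverse complement ATTGT, the core bound by SOX factors, were searched on both strands and are in capitals; no base lay in both motifs. The windows are chr16:91225300-91225456, chr11:100574689-100574903 and chr5:75152001-75152250, all on the + strand, of 157, 215 and 250 bases.
Olig2: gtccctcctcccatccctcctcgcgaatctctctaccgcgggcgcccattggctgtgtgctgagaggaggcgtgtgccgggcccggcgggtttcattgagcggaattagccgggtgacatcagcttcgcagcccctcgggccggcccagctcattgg
Cnp: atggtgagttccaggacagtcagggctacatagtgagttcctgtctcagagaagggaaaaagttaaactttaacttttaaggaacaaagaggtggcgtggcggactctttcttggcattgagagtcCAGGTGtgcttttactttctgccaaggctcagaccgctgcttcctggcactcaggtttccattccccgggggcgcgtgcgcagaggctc
Pdgfra: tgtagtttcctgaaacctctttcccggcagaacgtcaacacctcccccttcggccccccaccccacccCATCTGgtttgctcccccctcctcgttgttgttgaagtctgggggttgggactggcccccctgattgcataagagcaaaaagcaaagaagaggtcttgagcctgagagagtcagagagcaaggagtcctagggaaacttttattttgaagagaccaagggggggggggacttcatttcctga

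*Cnp* and *Pdgfra* each held 1 match to CANNTG and 0 to ACAAT, and *Olig2* held 0 of both. *Ugt8a*, over 250 bases, had 1 match to CANNTG, and *Cspg4*, over 179 bases, 1 match to ACAAT. Among 32851 promoters CANNTG occurred in 66.2% at 250 bases, 61.4% at 215 and 50.8% at 157, and ACAAT in 27.7%, 25.1% and 19.3%; at 179 bases they occurred in 55.3% and 21.5%. A match is a description of letters, and its absence says only that these letters are not in the window.

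In microglia *Gpr17*, *Sox10* and *Ugt8a* had 0 to 7 reads in each of the 9 microglia libraries, and *Pdgfra* 1 to 24 reads, at most 2.96 RPM, so these 4 genes were not tested. *Olig1* lay between 8.66 and 17.0 RPM and *Olig2* between 2.97 and 10.2 RPM, on as few as 12 reads in a library, far under every astrocyte library. *Cspg4* was at 1202, 1238 and 1247 RPM in quiescent WT microglia, above all astrocyte libraries, at 61.3, 66.9 and 68.5 RPM in LPS-treated WT and at 112, 107 and 212 RPM in LPS-treated *SOD1* G93A microglia. Quiescent libraries thus stood far above the rest, and the LPS groups did not overlap.

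*Cspg4* was lower in LPS-treated than in quiescent WT microglia, with a log2 fold change of −4.01 ± 0.08 (SE), or 16.1-fold (adjusted p = 1e-10). *Mbp* was at 85.9, 83.9 and 84.6 RPM in quiescent WT, at 14.8, 17.5 and 15.0 RPM in LPS-treated WT and at 17.1, 15.3 and 23.7 RPM in LPS-treated *SOD1* G93A microglia. Only the LPS groups overlapped, and in WT cells *Mbp* fell by 2.21 ± 0.11 (log2, SE), 4.61-fold (adjusted p = 5.76e-08). These 2 of the 5 genes tested were called lower, beside 1153 of 10866 genes (10.6%), and 0 of 5 higher by limma, edgeR or DESeq2, beside 1110 genes (10.2%); an unadjusted p under 0.05 was reached by 3 of the 5 and by 6694 of all genes. The median of the 5 was 0.10, and that of all genes 0.01 (log2).

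*Cnp* stayed within a narrow range in microglia, at 28.4, 28.6 and 26.4 RPM in quiescent WT, 35.0, 34.5 and 29.1 RPM in LPS-treated WT and 32.1, 33.8 and 25.7 RPM in LPS-treated *SOD1* G93A cells. LPS-treated WT libraries were all above the quiescent ones, by 0.45 ± 0.12 (log2, SE, adjusted p = 0.00765), which was not called. The log2 fold change with LPS was 0.10 ± 0.19 for *Olig1* (adjusted p = 0.669) and 0.30 ± 0.22 for *Olig2* (SE, adjusted p = 0.266). In the same comparison 15 of 18 cell cycle genes were called lower, as were 11 of 15 microglia markers, and the 4 Y-linked genes were lower by −3.24 to −4.56 with *Xist* higher by 1.07 (log2), all 5 called. LPS and the mix of sexes cannot be told apart in this comparison. The part of all these genes in the lower *Cspg4* and *Mbp* was not tested.

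Between LPS-treated *SOD1* G93A and WT microglia 0 of the 5 genes tested were called by limma, and 0 of 10679 genes higher (0.00%) or lower (0.00%); an unadjusted p under 0.05 was reached by 930 genes and 1 of the 5, edgeR called 0 and DESeq2 3 genes. *Cspg4* was higher in all 3 *SOD1* G93A libraries, by 1.06 ± 0.23 (log2, SE), 2.09-fold, and did not pass (adjusted p = 0.571, from 0.00159 to 0.691 over the alternatives). Without *SOD1* G93A library 3, the highest, its log2 fold change was 0.76. In the same comparison 12 of 14 microglia markers and 15 of 17 cell cycle genes tested were above 0, none of them called by limma (medians 0.22 and 0.22); microglia markers summed to 5021.5, 4918 and 6584.7 RPM in *SOD1* G93A and 4873, 4546 and 4536 RPM in WT libraries, so that library 3 was again the highest. The part of these in the value of *Cspg4* was not tested. The other 4 genes lay between −0.30 for *Olig2* and 0.23 for *Mbp* (adjusted p from 0.677 to 0.827), and their groups overlapped.

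**Figure D3:**
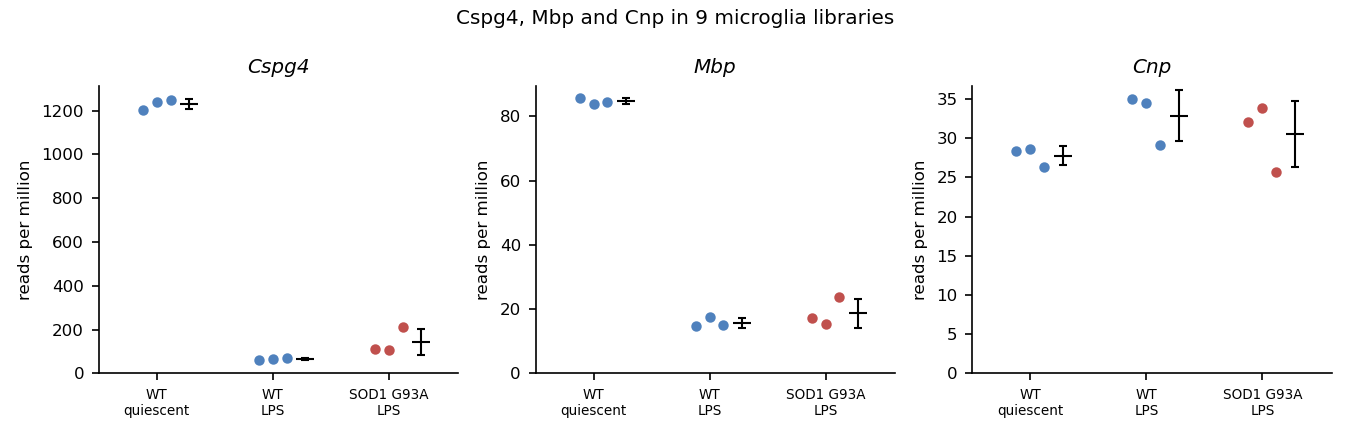
Level of *Cspg4*, *Mbp* and *Cnp* (vertical axes, RPM, from 0) in quiescent WT, LPS-treated WT and LPS-treated *SOD1* G93A microglia (blue WT, red *SOD1* G93A); each point is 1 library, and the bar beside the points is the mean with its SD (n = 3). *Cspg4* stands at 1202 RPM or more in every quiescent library and at 212 RPM or less with LPS.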

How the data were processed

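The authors made strand-specific polyA libraries, mapped paired reads on mm10 by STAR 2.7.3a, took counts from RSEM and ran DESeq2 per comparison; the annotation they used is not given in the sources used here. The per-library values the authors deposited are a signal (normalized count): reads over the size factor of the library, set separately in 6 tables. The mean, log2 fold change, standard error, test score, p-value and adjusted p-value that the authors deposited in the same tables were not used. Division of each column by its smallest step returned whole reads for 100% of the values (tolerance 0.001 reads), and the 15 repeats of a library in another table held identical reads. Depth was 2016139 to 11570122 reads on genes per library, median 5098168. The sixth table, which mixes genotype and activation, served only to check the reads.

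Groups came from the labels. limma 3.58.1 with an intensity trend in R 4.3.3 was fitted to log2(value + 1) of the deposited values within each comparison; where no table holds both groups (activation of *SOD1* G93A astrocytes, interaction), the reads were scaled together by median-of-ratios size factors. Testing required a mean of 10 or more, p-values were adjusted by Benjamini-Hochberg across every gene tested, and the fit was tested on simulated data. On the recovered reads, edgeR 4.0.16 and DESeq2 1.42.0 called 84 and 81 genes between the activated genotypes, and limma 78. The other alternatives were added values of 0.5 and 5, dropping the filter or asking 10 of each library, TMM, quantile normalization, an adjusted p under 0.05 with the 2-fold limit dropped, the replicate number as a block, a depth class term (the 3 shallowest of 6 libraries against the others) and leaving out each library in turn.

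The 9 genes and the lists were chosen with earlier results of these data known. Lists held progenitor (14), committed precursor (12), myelin (16) and PDGF genes (5), markers of astrocytes (15), microglia (15), neurons (14), endothelial cells (10), pericytes and fibroblasts (12), cell cycle genes (18) and sex genes (5), and no gene stood in more than 1 of them. The text names all 9 genes, the gene with the most reads in each list, the called genes of the lineage lists with the largest changes (up to 3 a direction), and the 10 and 5 genes most like *Gpr17* and *Sox10* in pattern; other names were chosen after their values were seen. Exon lengths and coordinates are from GENCODE M21 on GRCm38.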

Additional observations from a re-analysis of the deposited data

How the results depend on the processing

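The number of the 9 genes called was within 1.5 times of the stated one in 116 of 122 refits. Between the quiescent genotypes it was 1 (*Gpr17*) with DESeq2, 1 at an adjusted p under 0.05 and any fold change and 1 with the depth class term, in place of 0, on the values that chose it. Under that looser rule, which drops the 2-fold limit too, it was 3 in place of 0 between the activated genotypes and 7 in place of 3 for the activation of *SOD1* G93A astrocytes, where leaving out a library gave 3 to 5. Log2 fold changes that turned were all small and not called: leaving out 1 library gave −0.273 to 0.442 for *Mbp* between the quiescent genotypes; −0.303 to 0.029 for *Pdgfra* and −0.052 to 0.379 for *Cspg4* in the WT response; −0.013 to 0.044 for *Olig2* and −0.012 to 0.085 for *Cnp* between the activated genotypes, where quantile normalization gave −0.004 for *Olig1* and −0.031 for *Olig2*; −0.009 to 0.312 for *Olig1* with LPS; −0.656 to 0.227 for *Olig2* and −0.188 to 0.03 for *Cnp* between the LPS genotypes; and in the interaction −0.206 to 0.138 for *Sox10*, which was −0.009 with TMM, and −0.291 to 0.04 for *Pdgfra*. The cause was not tested. With the replicate block the counts were 0 and 4 for the descriptive comparisons, 0 between the activated genotypes, 3 for the activation of *SOD1* G93A cells, 2 with LPS, 0 between the LPS genotypes and 0 in the interaction, as without it. Same-numbered libraries did not deviate together (r = −0.40, 0.06 and −0.44 at rest, −0.07 to 0.06 elsewhere). With 3 libraries a group, this cannot settle whether the numbers pair them. At rest libraries 1 and 3 of opposite genotypes deviated together (r = 0.351 and 0.522), and the other differently numbered pairs lay between −0.133 and 0.085. The pair at 0.522 held the deepest library of each genotype, and the pair at 0.351 the shallowest. The depth class term was not run between the activated genotypes, where it equals genotype. Leaving out 1 library moved the interaction calls over all genes from 34 to between 13 and 69. Some libraries had higher values than the rest of their group in chi-square per degree of freedom between pairs. This value is taken on raw reads and rises with depth where the spread exceeds counting noise. With LPS, WT library 1 had 13.965 and 12.807 (other pair 1.625), and *SOD1* G93A library 3 had 15.663 and 20.314 (other pair 2.325). In quiescent astrocytes, WT library 3 had 8.969 and 6.497 (other pair 2.031), and *SOD1* G93A library 1 had 6.467 and 9.869 (other pair 2.785). These libraries were the deepest of their groups, except the LPS-treated *SOD1* G93A one, which was the shallowest. Reads were few for *Gpr17* in activated cells (4 to 20 reads), for *Ugt8a*, and for the 4 genes not tested in microglia. The SD and every p rest on 3 libraries a group, and levels are shares of each library's reads, so a large change elsewhere moves them all.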
